A study of Mus musculus with 4 samples.

Results

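The BCL2 family was followed here through 10 genes, chosen by symbol from the 56941 features counted in each library. Of these, 5 are pro-survival members (Bcl2, Bcl2l1, Mcl1, Bcl2a1b and Bcl2a1d) and 5 are pro-death members (Bcl2l11, Bbc3, Pmaip1, Bax and Bak1). All 10 had a row in the files and each was seen in all 4 libraries. The libraries are droplet single-cell RNA-seq of mouse bone marrow, 1 per group: Rbm5 knockout (KO) MLL-AF9 cells, wild-type (WT) MLL-AF9 cells, KO c-Kit+ cells and WT c-Kit+ cells. MLL-AF9 is a fusion oncogene that drives acute myeloid leukaemia. The leukaemia cells of both genotypes come from recipients of a primary transplant and were taken at a common end point, and the c-Kit+ cells are the study's normal stem and progenitor comparison. Age, the number or pooling of animals, the knockout allele and the Cre or guide that made it are not named in the labels. The design asked how loss of Rbm5, an RNA-binding splicing factor, changes expression in leukaemia and in normal progenitors.

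Proteins of the BCL2 family set the threshold for mitochondrial apoptosis. Pro-survival proteins hold the pore-forming proteins BAX and BAK in check, and the BH3-only proteins, here those of Bcl2l11 (BIM), Bbc3 (PUMA) and Pmaip1 (NOXA), relieve that restraint or activate BAX and BAK directly. In blood formation, stem cells and lymphocytes are known for their use of BCL2, red cell precursors for BCL-XL, and neutrophils for the short-lived proteins MCL1 and A1.

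Of the barcodes in the files, 11778 KO MLL-AF9, 13177 WT MLL-AF9, 13708 KO c-Kit+ and 12948 WT c-Kit+ cells had 500 or more genes, 1000 or more UMIs (counted molecules) and at most 10% mitochondrial UMIs. They held between 93004538 and 101255178 UMIs per library, with a median of 5352 to 7420.5 UMIs per cell. Levels are CPM (UMIs of a gene scaled to a common total) of the summed cells of a library or of a set of its cells, and each interval is 95% and covers counting error only. With 1 library per group no comparison was tested, and a difference between libraries cannot be told apart from a difference between animals or preparations. Rbm5 transcripts were counted in both KO libraries, at 116 CPM in KO MLL-AF9 and 160 CPM in WT MLL-AF9 cells, and at 89.6 CPM in KO c-Kit+ and 75.5 CPM in WT c-Kit+ cells. Which part of the gene was deleted is not named in the labels, so these counts do not check the genotype, and KO and WT mean libraries labelled so. Kit itself was seen in 18.1% of KO c-Kit+ and 17.3% of WT c-Kit+ cells, and 42.2% of KO c-Kit+ and 45.2% of WT c-Kit+ cells scored highest on secondary granule markers, so the c-Kit+ libraries are referred to by their label.

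Among the pro-survival members, Mcl1 and Bcl2a1b were higher and Bcl2 was lower in KO than in WT MLL-AF9 cells. Mcl1 (ENSMUSG00000038612, chromosome 3, 95658788 to 95663176, plus strand, GRCm38) encodes a pro-survival protein with rapid turnover. It stood at 1430 CPM in KO MLL-AF9, 221 in WT MLL-AF9, 199 in KO c-Kit+ and 211 in WT c-Kit+ cells. The other 3 libraries lay close together and KO MLL-AF9 lay above them, 6.48-fold (interval 6.38 to 6.57) above WT MLL-AF9 on 144784 and 20533 Mcl1 UMIs. That ratio was higher than those of 99.02% of the 9901 genes that averaged at least 5 CPM.

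Bcl2 (ENSMUSG00000057329, chromosome 1, 106538178 to 106714274, minus strand), the founding member of the family, had 24.6 CPM in KO MLL-AF9, 74.8 in WT MLL-AF9, 59.6 in KO c-Kit+ and 53.9 in WT c-Kit+ cells. Here KO MLL-AF9 was the lowest of the 4 libraries and WT MLL-AF9 the highest. The KO over WT ratio in MLL-AF9 cells was 0.329 (0.314 to 0.344), at the 2.14 percentile of all genes. Bcl2l1 (ENSMUSG00000007659, chromosome 2, 152780668 to 152831728, minus strand), which encodes BCL-XL, showed no such gap. Its levels were 26.5 CPM in KO MLL-AF9, 26.2 in WT MLL-AF9, 18.8 in KO c-Kit+ and 18.1 in WT c-Kit+ cells, and the KO over WT ratio in MLL-AF9 cells of 1.01 (0.959 to 1.07) became 1.29 with size factors.

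The A1 genes are a mouse cluster of near-identical copies on chromosome 9, and reads from one could have been counted for another. Bcl2a1b (ENSMUSG00000089929, 89199209 to 89207827, plus strand) and Bcl2a1d (ENSMUSG00000099974, 88723285 to 88731914, minus strand) differ at 6 of 519 coding bases, an identity of 98.8%. The first 60 coding bases of the 3 full copies, from GENCODE M21 transcripts, are shown to make this visible, with the positions at which any of the copies differ in capitals.
Bcl2a1a: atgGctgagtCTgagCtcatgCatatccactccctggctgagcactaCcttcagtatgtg
Bcl2a1b: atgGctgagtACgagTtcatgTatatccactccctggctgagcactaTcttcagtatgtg
Bcl2a1d: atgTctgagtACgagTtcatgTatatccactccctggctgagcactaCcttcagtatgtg
Over the last 300 bases of the transcripts, where poly-dT priming starts, Bcl2a1b and Bcl2a1d are 98.01% identical. With that uncertainty, Bcl2a1b had 16.8 CPM in KO MLL-AF9, 5.02 in WT MLL-AF9, 4.96 in KO c-Kit+ and 5.01 in WT c-Kit+ cells, a KO over WT ratio in MLL-AF9 cells of 3.35 (3.02 to 3.72). Summed over whole libraries, Bcl2a1d stayed between 2.46 and 2.75 CPM in all 4, and its ratios within windows are given further on. The third copy, Bcl2a1a, had 2.28 CPM in KO MLL-AF9 and 2.68 CPM in WT MLL-AF9 cells.

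The 3 BH3-only members were all higher in KO than in WT MLL-AF9 cells. Bcl2l11 (ENSMUSG00000027381, chromosome 2, 128126038 to 128162547, plus strand) encodes BIM, which binds all the pro-survival proteins. It had 119 CPM in KO MLL-AF9, 26.2 in WT MLL-AF9, 42.4 in KO c-Kit+ and 46.8 in WT c-Kit+ cells, so that the leukaemia libraries lay on either side of the c-Kit+ pair. Its KO over WT ratio in MLL-AF9 cells was 4.53 (4.34 to 4.73). Bbc3 (ENSMUSG00000002083, chromosome 7, 16308393 to 16318205, plus strand), the p53 target that encodes PUMA, had 58.9 CPM in KO MLL-AF9, 11.9 in WT MLL-AF9, 10.9 in KO c-Kit+ and 11.8 in WT c-Kit+ cells. Only KO MLL-AF9 stood apart, by 4.96-fold (4.65 to 5.29) over WT MLL-AF9. Pmaip1 (ENSMUSG00000024521), which encodes NOXA, the BH3-only protein that binds MCL1 and A1, had 135 CPM in KO MLL-AF9, 29.1 in WT MLL-AF9, 9.43 in KO c-Kit+ and 9.14 in WT c-Kit+ cells. Both leukaemia libraries lay above the c-Kit+ pair, and the KO over WT ratio in MLL-AF9 cells was 4.65 (4.47 to 4.85).

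The pore-forming members moved little. Bax (ENSMUSG00000003873, chromosome 7, 45461697 to 45466898, minus strand) had 83.0 CPM in KO MLL-AF9, 108 in WT MLL-AF9, 95.2 in KO c-Kit+ and 87.7 in WT c-Kit+ cells. Bak1 (ENSMUSG00000057789, chromosome 17, 27019810 to 27029009, minus strand) had 41.6 CPM in KO MLL-AF9, 56.9 in WT MLL-AF9, 41.3 in KO c-Kit+ and 40.0 in WT c-Kit+ cells. Set against WT, KO MLL-AF9 cells had ratios of 0.768 (0.746 to 0.791) for Bax and 0.731 (0.702 to 0.761) for Bak1. These ratios sat at the 50.5 and 45.3 percentiles of all genes, and the median gene itself had a KO over WT log2 ratio of -0.38 in MLL-AF9 cells. With size factors that centre the median gene, the ratios became 0.981 for Bax and 0.933 for Bak1.

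**Figure D1:**
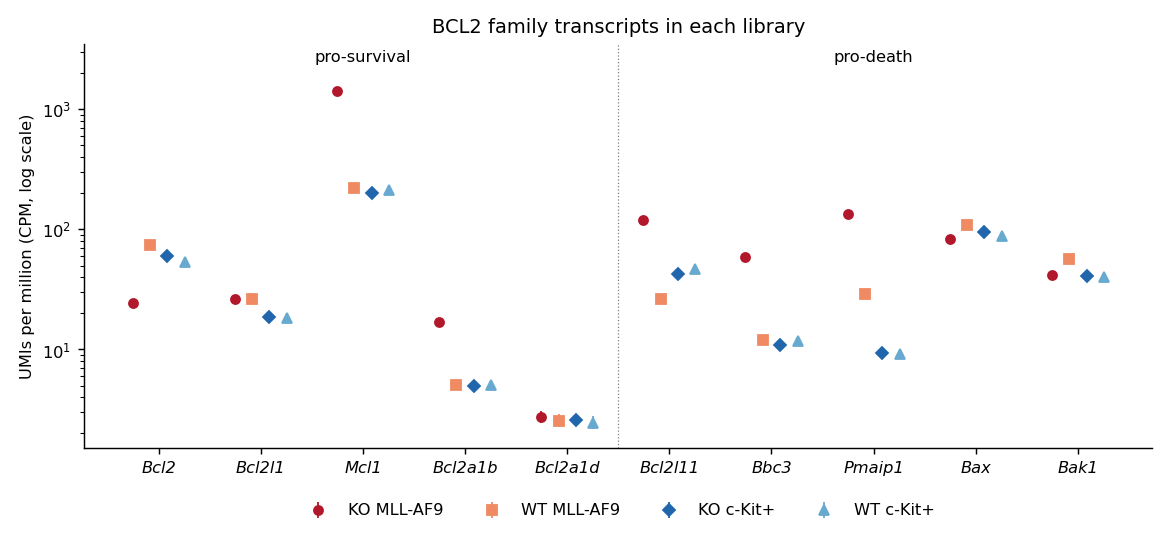
Level of each of the 10 BCL2 family genes, in CPM on a log scale, in each of the 4 libraries (1 point per library, bars are 95% Poisson intervals and mostly smaller than the symbols). KO MLL-AF9 stands above the other 3 libraries for Mcl1 (1430 CPM), Bcl2a1b, Bcl2l11, Bbc3 and Pmaip1 (135 CPM), and below them for Bcl2 (24.6 CPM).

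With a difference of 2-fold or more as the mark (log2 ratio of CPM + 1 of at least 1 in size), 5 of the 10 members were higher and 1 was lower in KO than in WT MLL-AF9 cells. The 5 were Mcl1, Bcl2a1b, Bcl2l11, Bbc3 and Pmaip1, and the 1 was Bcl2. Of those 9901 genes, 5.5% were past that mark in the higher direction and 12.6% in the lower. Of the members, 9 reached the mean of 5 CPM, and Bcl2a1d did not. The higher members were drawn from both sides of the family: 2 pro-survival and 3 pro-death. With size factors or TMM factors the counts stayed at 5 and 1. With the libraries weighted to the same mix of marker windows, Bcl2 had a log2 ratio of -0.86, short of the mark, while 5 members were still higher. Transcripts of the immediate early genes Fos and Egr1 were also highest in KO MLL-AF9. Fos had 1654 CPM in KO MLL-AF9, 37.8 in WT MLL-AF9, 438 in KO c-Kit+ and 436 in WT c-Kit+ cells. Egr1 had 622, 10.2, 107 and 114 CPM in the same libraries. In CPM, both were lower in WT MLL-AF9 than in c-Kit+ cells, as Bcl2l11 was, whereas Mcl1, Bcl2a1b, Bbc3 and Pmaip1 were not. This contrast depended on the scaling. With size factors the WT MLL-AF9 over WT c-Kit+ ratios were 0.817 for Mcl1, 0.783 for Bcl2a1b, 0.788 for Bbc3 and 2.49 for Pmaip1. The part of Fos and Egr1 in the family's differences was not tested. A higher sum in a library can reflect more cells with a transcript or more transcript per cell, so per-cell and per-window values are given further on.

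Of the 5 members that were higher in KO MLL-AF9 cells, the promoters of Mcl1, Bcl2a1b, Bcl2l11 and Bbc3 were searched for motifs and that of Pmaip1 was not. The bases upstream of 1 start each of Mcl1, Bcl2l11 and Bbc3 are shown, 250 bases each, from RefSeq on GRCm38.p6, with matches to the searched motifs in capitals apart from the short one TGACG. For Mcl1 (chr3:95658471-95658720, plus strand) the printed stretch held none, and TGACG lies after the start. For Bcl2l11 (chr2:128125788-128126037, plus strand) and Bbc3 (chr7:16309333-16309582, plus strand) the capitals mark GCGGGGGCG, a sequence that EGR proteins are known to bind.
Mcl1: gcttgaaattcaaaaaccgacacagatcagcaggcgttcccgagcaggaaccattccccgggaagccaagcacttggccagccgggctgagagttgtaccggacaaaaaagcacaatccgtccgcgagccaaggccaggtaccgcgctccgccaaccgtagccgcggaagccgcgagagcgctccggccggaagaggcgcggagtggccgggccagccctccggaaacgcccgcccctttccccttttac
Bcl2l11: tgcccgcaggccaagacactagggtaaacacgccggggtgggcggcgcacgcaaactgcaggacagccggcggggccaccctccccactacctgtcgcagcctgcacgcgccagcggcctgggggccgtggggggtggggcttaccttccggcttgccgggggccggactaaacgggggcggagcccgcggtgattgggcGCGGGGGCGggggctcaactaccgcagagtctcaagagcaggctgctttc
Bbc3: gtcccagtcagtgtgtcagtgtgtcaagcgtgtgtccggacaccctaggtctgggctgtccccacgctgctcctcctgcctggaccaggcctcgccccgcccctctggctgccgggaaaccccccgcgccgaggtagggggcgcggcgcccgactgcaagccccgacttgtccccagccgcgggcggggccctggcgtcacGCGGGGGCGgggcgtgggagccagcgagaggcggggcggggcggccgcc
RefSeq gave 2 windows for Bcl2l11 and 3 for Bbc3. The window shown is the 1 of each gene that held GCGGGGGCG, and the second Bcl2l11 window held none of the motifs searched. The GCGGGGGCG match begins 50 bases before the start in Bcl2l11 and 49 bases before it in Bbc3. Over the 32544 promoter windows of 300 bases (250 before and 50 after a start), 2.93% held it on either strand. Other motifs searched on both strands were TGACGTCA (1.80% of promoters), TGACG (20.9%), which is contained in it, TGACTCA (5.19%), the CArG box (1.64%) and CACGTG (7.17%). TGACG was found in windows of Bcl2, Mcl1, Bcl2a1b, Bcl2a1d and Bbc3, and CACGTG in a further Bbc3 window and at 2 places in that of Bax. These are matches of letters, not measured sites.

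Summed over members, pro-survival UMIs outnumbered pro-death UMIs in every library. The ratio of the sums was 3.43 (3.39 to 3.47) in KO MLL-AF9, 1.42 (1.39 to 1.44) in WT MLL-AF9, 1.43 (1.41 to 1.46) in KO c-Kit+ and 1.49 (1.46 to 1.52) in WT c-Kit+ cells. Mcl1 alone made up 73.8% of the family's UMIs in KO MLL-AF9, 39.3% in WT MLL-AF9, 41.1% in KO c-Kit+ and 43.4% in WT c-Kit+ cells. Without Mcl1 the order of the leukaemia libraries was the opposite. The remaining 4 pro-survival members then gave 0.162 (0.158 to 0.166) pro-survival UMIs per pro-death UMI in KO MLL-AF9, 0.468 (0.457 to 0.479) in WT MLL-AF9, 0.432 (0.421 to 0.443) in KO c-Kit+ and 0.407 (0.396 to 0.418) in WT c-Kit+ cells. Such sums count captured molecules of RNA and carry no weight for how well each gene is captured or for protein.

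Per cell, the Mcl1 difference was spread over most cells of the KO MLL-AF9 library. Each cell was thinned to 2000 UMIs, which kept 11264 KO MLL-AF9, 11987 WT MLL-AF9, 11927 KO c-Kit+ and 11516 WT c-Kit+ cells. At that depth Mcl1 was seen in 89.1% of KO MLL-AF9, 38.5% of WT MLL-AF9, 35.2% of KO c-Kit+ and 36.9% of WT c-Kit+ cells, against 97.0%, 69.5%, 67.6% and 68.4% before thinning. Cells with 3 or more Mcl1 UMIs made up 53.9% of KO MLL-AF9, 3.34% of WT MLL-AF9, 3.18% of KO c-Kit+ and 3.35% of WT c-Kit+ cells. No cell type here is known to lack Mcl1, so no background share from free RNA can be set beside it.

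**Figure D2:**
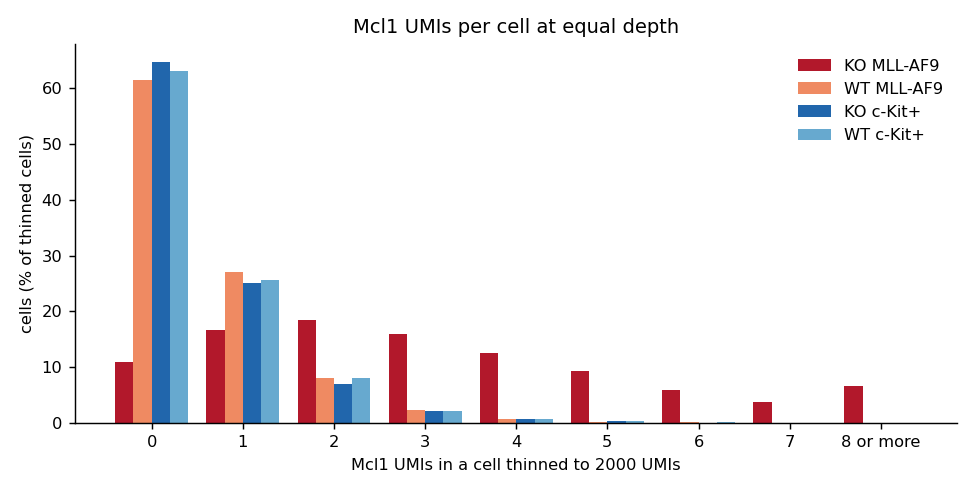
Share of cells (percent, y axis) by the number of Mcl1 UMIs in a cell thinned to 2000 UMIs (x axis), for the 4 libraries. The KO MLL-AF9 cells spread over 0 to 8 or more UMIs with 53.9% at 3 or more, whereas 3.18% to 3.35% of the cells in the other 3 libraries had 3 or more.

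The BH3-only transcripts were sparser. In the thinned cells Bcl2l11 was seen in 20.3% of KO MLL-AF9, 5.29% of WT MLL-AF9, 7.74% of KO c-Kit+ and 8.03% of WT c-Kit+ cells. Pmaip1 was seen in 18.1% of KO MLL-AF9, 5.28% of WT MLL-AF9, 1.78% of KO c-Kit+ and 1.73% of WT c-Kit+ cells. None of the 3 BH3-only genes was seen in 58.8% of KO MLL-AF9, 87.3% of WT MLL-AF9, 88.9% of KO c-Kit+ and 88.4% of WT c-Kit+ cells. At least 2 of them were seen together in 7.90% of KO MLL-AF9 and 0.667% of WT MLL-AF9 cells. At this depth genes of such levels give less than 1 UMI per cell on average, so these shares do not tell whether cells carry 1 or several of the genes, and no cell type here is known to lack all 3, so no background share from free RNA is set beside them. Bcl2 was seen in 3.27% of KO MLL-AF9, 9.17% of WT MLL-AF9, 7.61% of KO c-Kit+ and 6.91% of WT c-Kit+ thinned cells. As a floor for Bcl2, cells of the erythroid marker window, which are known for little BCL2, showed it in 1.08% of KO c-Kit+ and 0.697% of WT c-Kit+ cells at the same thinned depth (median 7908 and 11471 UMIs before thinning).

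To place the members along maturation, each cell was given to the marker list it scored highest on. The neutrophil axis ran from stem and progenitor (Kit, Cd34) through primary granule (Mpo, Elane), preneutrophil (Fcnb, Cebpe) and secondary granule (Ltf, Camp) to late neutrophil (Cxcr2, Mmp8) cells, with monocytic and other lineages beside it. These windows are ranges of a score and not cell types, no member is among the markers, and 22.0% to 27.4% of the cells of a library lay near a cut, within the axis most often in the preneutrophil window of KO c-Kit+ (58.7%) and WT c-Kit+ (53.1%). By window the leukaemia libraries differed in their mix. Secondary granule cells made up 35.2% of KO MLL-AF9 and 14.4% of WT MLL-AF9 cells. Monocytic cells made up 9.98% of KO MLL-AF9 and 19.2% of WT MLL-AF9 cells. These shares depended on how cells were classed. Clustering, used as an alternative, put 2998 KO and 4 WT MLL-AF9 cells in the secondary granule class. It put 1181 KO and 2 WT MLL-AF9 cells in the preneutrophil class. Only 50 KO MLL-AF9 cells fell in the stem and progenitor window, too few for a value under the minimum of 100 cells.

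In both c-Kit+ libraries the pro-survival members Bcl2 and Mcl1 peaked at opposite ends of the axis. Bcl2 was highest in the least mature cells, at 248 CPM in stem and progenitor, 35.8 in primary granule, 9.22 in preneutrophil, 15.6 in secondary granule and 8.04 in late neutrophil cells of KO c-Kit+. The WT c-Kit+ values were 220, 40.4, 10.6, 15.4 and 6.19 CPM in the same order. Mcl1 instead had its low point in primary granule cells and its peak in late neutrophil cells, with 223, 127, 145, 216 and 771 CPM in KO c-Kit+ and 227, 135, 158, 221 and 714 CPM in WT c-Kit+. Bcl2l1 followed Mcl1 at the late end. Its late over primary granule ratio was 8.68 in KO c-Kit+ (86.3 against 9.94 CPM) and 6.50 in WT c-Kit+ (53.1 against 8.17 CPM).

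The pro-death members of the c-Kit+ libraries diverged from each other. Bax, a pore-forming effector, was lower in the late window, with 21.4 CPM against 167 CPM in the primary granule window of KO c-Kit+ and 15.9 CPM against 158 CPM in WT c-Kit+. Bak1 went the same way less steeply, with late over primary granule ratios of 0.398 in KO c-Kit+ and 0.347 in WT c-Kit+. Bcl2l11 had a U shape: 176, 10.8, 10.2, 31.7 and 64.3 CPM from stem and progenitor to late neutrophil cells of KO c-Kit+, and 166, 11.1, 14.97, 38.8 and 84.5 CPM in WT c-Kit+. Bbc3 was likewise highest in the stem and progenitor window, at 24.1 CPM in KO c-Kit+ and 24.3 CPM in WT c-Kit+, against 2.60 to 11.9 CPM in the other 4 windows of both libraries. Pmaip1 was low throughout the axis, between 2.66 and 9.30 CPM.

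Members past 2-fold between late neutrophil and primary granule cells were counted among those that averaged at least 5 CPM, as all genes were. They were 4 higher and 3 lower of 9 in KO c-Kit+, and 3 higher and 3 lower of 8 in WT c-Kit+. The background was 20.7% higher and 46.8% lower of the genes of KO c-Kit+, and 20.2% higher and 48.9% lower of the genes of WT c-Kit+. In KO MLL-AF9 cells 4 of 9 members were higher and 1 was lower, beside 15.3% and 42.1% of all genes. In WT MLL-AF9 cells 2 of 8 were higher and 2 lower, beside 15.8% and 40.1% of all genes. Bcl2a1b, counted as higher in KO c-Kit+ and KO MLL-AF9, averaged at least 5 CPM only through its late values. It had 9.64 against 2.86 CPM in KO c-Kit+ and 23.3 against 4.31 CPM in KO MLL-AF9. Below that level, Bcl2a1d was past 2-fold higher in KO MLL-AF9 (3.31 against 0.820 CPM), and both A1 genes were in WT c-Kit+ (Bcl2a1b at 5.75 against 1.52 CPM and Bcl2a1d at 3.54 against 0.988 CPM). The median gene was lower in the late window of all 4 libraries, by log2 ratios of -0.67, -0.60, -0.82 and -0.93 in KO MLL-AF9, WT MLL-AF9, KO c-Kit+ and WT c-Kit+.

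Leukaemia cells kept part of the pattern. The Bcl2 late over primary granule ratio was 0.0591 in KO MLL-AF9 (3.83 against 64.8 CPM) and 0.158 in WT MLL-AF9 (11.2 against 71.0 CPM), beside 0.224 in KO c-Kit+ and 0.153 in WT c-Kit+. For Mcl1 it was 2.31 in KO MLL-AF9 (2611 against 1129 CPM), 4.97 in WT MLL-AF9 (632 against 127 CPM), 6.08 in KO c-Kit+ and 5.30 in WT c-Kit+. Bax kept more of its level in late leukaemia cells, with ratios of 0.583 in KO MLL-AF9 and 0.467 in WT MLL-AF9, beside 0.128 in KO c-Kit+ and 0.101 in WT c-Kit+. The ratio of Bcl2l11 was 2.67 in KO MLL-AF9 and 1.69 in WT MLL-AF9, beside 5.96 in KO c-Kit+ and 7.63 in WT c-Kit+. These leukaemia ratios depended on how cells were classed. With clusters in place of windows, the Bcl2l11 log2 ratio was 1.01 in KO MLL-AF9 and -0.01 in WT MLL-AF9, that of Bcl2 was -1.07 in KO MLL-AF9 and -1.67 in WT MLL-AF9, and the number of all 10 members past the mark was 3 in KO MLL-AF9 and 2 in WT MLL-AF9, against 6 and 4 with windows. In each of the c-Kit+ libraries clusters gave 7 of the 10.

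**Figure D3:**
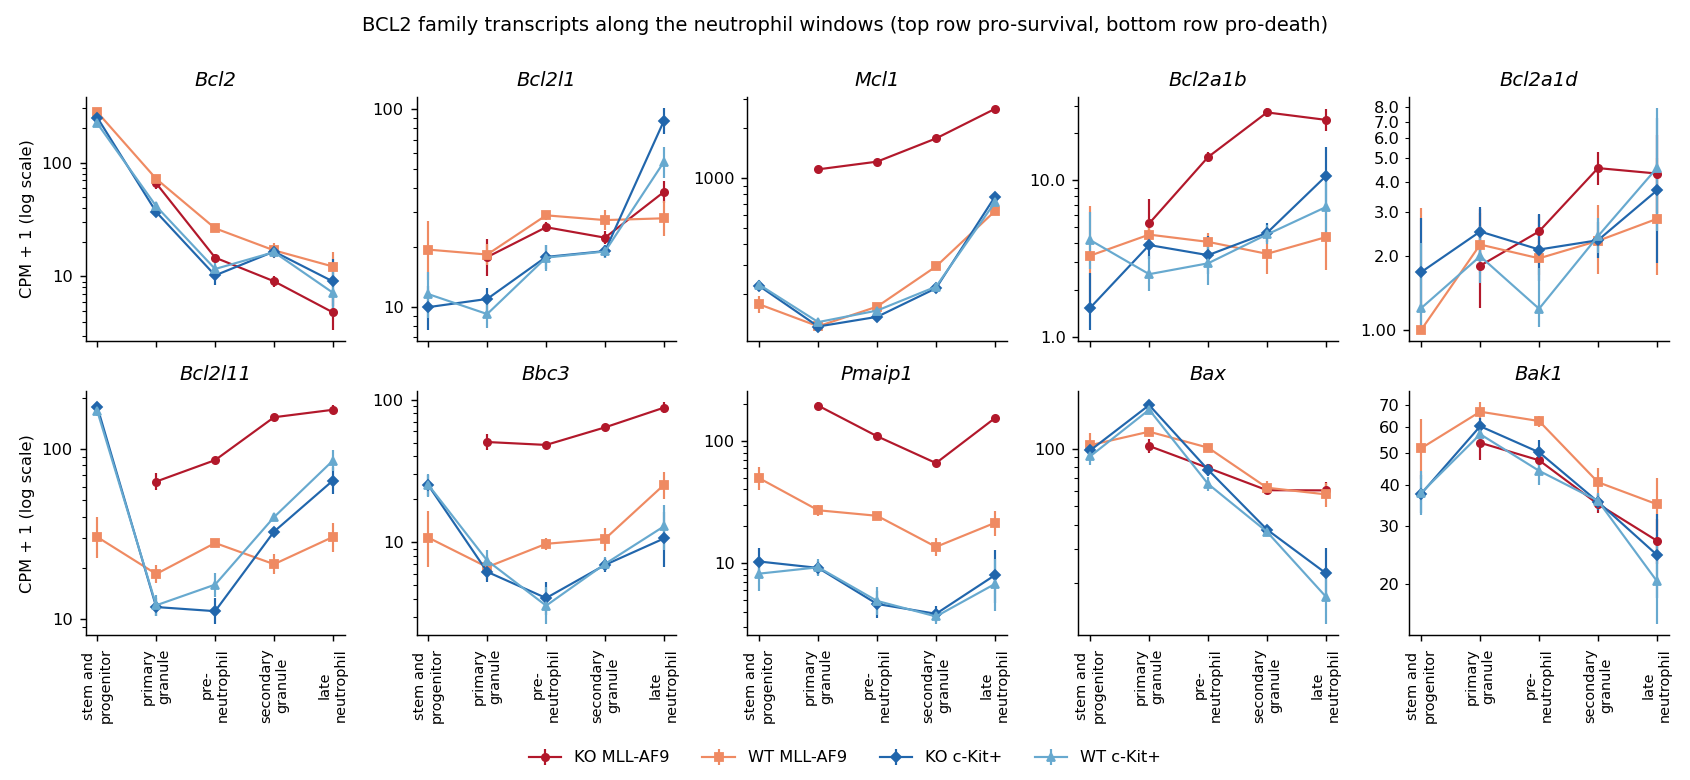
Level of each member (CPM + 1, log scale) in the 5 windows of the neutrophil axis, from stem and progenitor to late neutrophil, for the 4 libraries, with 95% Poisson intervals. Windows under 100 cells are not drawn. Bcl2 and Bax are lower in late neutrophil than in primary granule cells of every library, Mcl1 is at its peak in late neutrophil cells (2611 CPM in KO MLL-AF9 and 714 CPM in WT c-Kit+), and the KO MLL-AF9 line lies above the others for Mcl1, Bcl2l11, Bbc3 and Pmaip1 in every window drawn.

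The balance of the sums changed along the axis in every library, and of the windows with a value it was lowest in primary granule cells. In the stem and progenitor window, pro-survival per pro-death UMI was 1.95 in WT MLL-AF9, 1.40 in KO c-Kit+ and 1.42 in WT c-Kit+, above the primary granule value of each. It was 2.64, 3.59, 4.79 and 5.43 in primary granule, preneutrophil, secondary granule and late neutrophil cells of KO MLL-AF9. The values in the same order were 0.932, 1.02, 2.36 and 4.10 in WT MLL-AF9, 0.705, 1.22, 2.28 and 6.97 in KO c-Kit+, and 0.774, 1.46, 2.19 and 5.69 in WT c-Kit+. Along the axis, pro-death UMIs outnumbered pro-survival UMIs in the primary granule window of WT MLL-AF9, KO c-Kit+ and WT c-Kit+, and in no other window with a value. KO MLL-AF9 had the highest value of the 4 libraries in primary granule, preneutrophil and secondary granule cells, and KO c-Kit+ in the late window. Monocytic cells did not share the gap between the leukaemia libraries, with 1.53 in KO MLL-AF9, 1.51 in WT MLL-AF9, 1.34 in KO c-Kit+ and 1.49 in WT c-Kit+. T and NK cells had the opposite order, with 1.87 in KO MLL-AF9 and 3.02 in WT MLL-AF9. In that window 42.3% of the WT MLL-AF9 cells lay near a cut. Left without Mcl1, the monocytic balance was 0.0797 in KO MLL-AF9 and 0.575 in WT MLL-AF9 cells, beside 0.400 in KO c-Kit+ and 0.490 in WT c-Kit+.

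**Figure D4:**
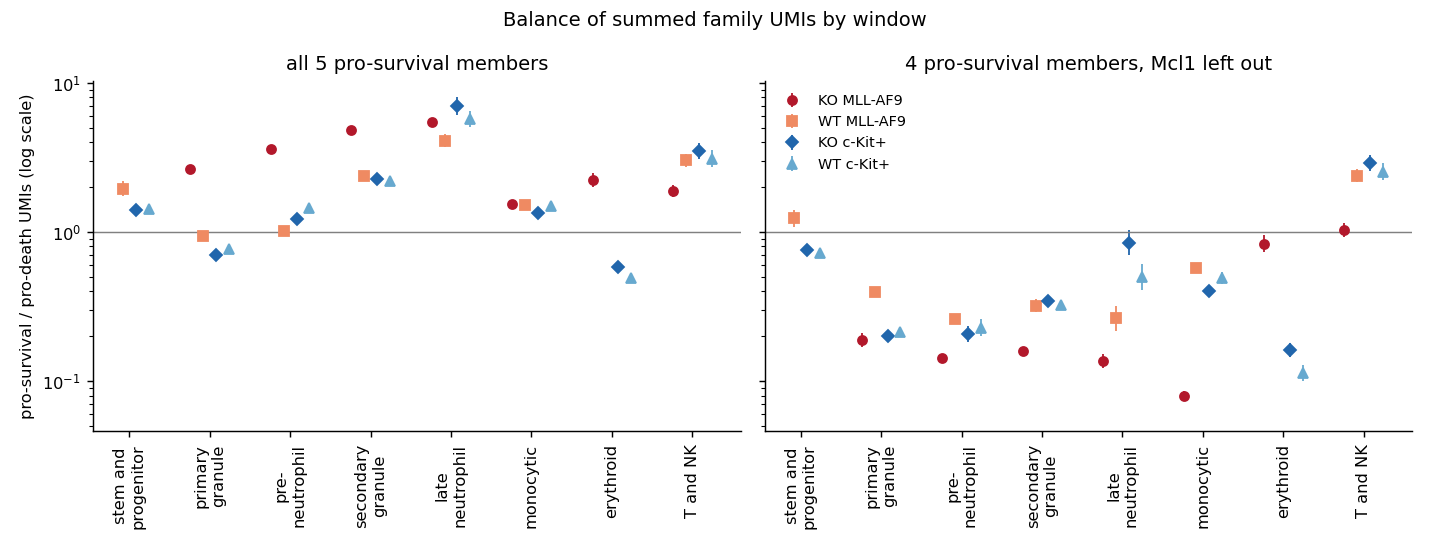
Ratio of summed pro-survival to summed pro-death UMIs (log scale, 95% intervals) by marker window and library, with all 5 pro-survival members (left) and without Mcl1 (right). With Mcl1 the values climb from the primary granule window onwards to 5.43 in KO MLL-AF9 and 6.97 in KO c-Kit+ at the late end, and without it KO MLL-AF9 is the lowest library in all 5 windows from primary granule to monocytic and in T and NK cells.

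The KO over WT differences in MLL-AF9 cells were present within most windows, with exceptions for Bcl2a1b and Bcl2. Mcl1 was higher in KO in all 6 windows with 100 or more cells in both libraries, by 8.87-fold in primary granule, 7.501-fold in preneutrophil, 5.92-fold in secondary granule and 4.13-fold in late neutrophil cells. Outside the axis it was higher by 4.25-fold in monocytic and 3.30-fold in T and NK cells. Bcl2l11, Bbc3, Pmaip1 and Bcl2a1b were also higher in KO in 6 of 6 windows, over 3.14 to 8.17-fold for Bcl2l11, 3.57 to 8.66-fold for Bbc3, 2.10 to 7.60-fold for Pmaip1 and 1.23 to 10.9-fold for Bcl2a1b. The lowest Bcl2a1b ratio, 1.23 (0.697 to 2.10) in primary granule cells, had an interval that included 1. For Pmaip1 the monocytic cells were at the top, with 410 CPM in KO MLL-AF9 and 53.9 CPM in WT MLL-AF9. The Bcl2 ratio of KO over WT was 0.912 (0.801 to 1.04) in primary granule cells, an interval that included 1. It was 0.535 in preneutrophil, 0.506 in secondary granule, 0.341 in late neutrophil and 0.297 in monocytic cells. In the primary granule window 42.7% of KO MLL-AF9 and 41.4% of WT MLL-AF9 cells lay near a cut. Clusters gave Bcl2 another order, with 0.525 (0.467 to 0.588) in primary granule, 0.795 (0.585 to 1.07) in late neutrophil and 0.392 (0.364 to 0.421) in monocytic cells. They gave Mcl1 ratios of 8.85 in primary granule and 7.43 in late neutrophil cells, and a Bcl2a1b ratio of 3.47 in primary granule cells, against 1.23 in the window. No cluster ratio was available for preneutrophil or secondary granule cells, with 2 and 4 WT MLL-AF9 cells there. The primary granule, late neutrophil and monocytic cluster ratios compare different clusters that were given the same marker name. For primary granule cells, 1 such cluster held 2557 KO and 4 WT cells and another held 27 KO and 3772 WT cells. In the T and NK window the Bcl2 ratio was 0.936 (0.846 to 1.03), where 42.3% of the WT MLL-AF9 cells lay near a cut. That window also gave the highest Bcl2l11 ratio, 8.17, and the lowest Pmaip1 ratio, 2.10. The T and NK cluster gave 3.43 for Bcl2l11 and 4.35 for Pmaip1. Fos and Egr1 together had 1536 to 4501 CPM in the 5 neutrophil and monocytic windows of KO MLL-AF9 and 27.5 to 148 CPM in those of WT MLL-AF9.

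Erythroid and lymphoid cells of the leukaemic marrow differed between KO and WT in the same directions for most members. When the MLL-AF9 cells were clustered, nearly every cluster came from 1 library, and an erythroid cluster (289 KO and 136 WT cells) and a T and NK cluster (140 KO and 143 WT cells) were chosen after seeing the data as those that both libraries filled. In the erythroid cluster Mcl1 had 348 CPM in KO MLL-AF9 and 125 CPM in WT MLL-AF9, a ratio of 2.79 (2.36 to 3.32). In the T and NK cluster it had 616 CPM in KO MLL-AF9 and 237 CPM in WT MLL-AF9, a ratio of 2.60 (2.19 to 3.09). Both ratios were smaller than the 6.48 of the whole libraries. Bcl2l11 in T and NK cells had 451 CPM in KO MLL-AF9 and 131 CPM in WT MLL-AF9, and Bcl2 had 579 CPM in KO MLL-AF9 and 1640 CPM in WT MLL-AF9, ratios of 3.43 (2.75 to 4.34) for Bcl2l11 and 0.353 (0.319 to 0.390) for Bcl2. The Bcl2 ratio thus differed from that of the T and NK window, which took in 312 WT MLL-AF9 cells. Pmaip1 was 4.44-fold (2.07 to 11.4) higher in KO in the erythroid and 4.35-fold (2.21 to 9.52) higher in the T and NK cluster. Bcl2l1, at 126 CPM in KO MLL-AF9 and 156 CPM in WT MLL-AF9, was slightly lower in KO in the erythroid cluster, with a ratio of 0.812 (0.683 to 0.967).

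Early genes and granule transcripts were also counted in those clusters. Fos had 1032 CPM in KO and 26.5 CPM in WT T and NK cells, and 427 CPM in KO and 20.3 CPM in WT erythroid cells of the MLL-AF9 libraries. The 5 primary granule markers, which these lineages lack, summed to 1915 CPM in KO and 1791 CPM in WT T and NK cells, and to 956 CPM in KO and 1767 CPM in WT erythroid cells, beside 5179 CPM over all KO MLL-AF9 and 6205 CPM over all WT MLL-AF9 cells. The 7 late neutrophil markers summed to 256 CPM in KO and 174 CPM in WT T and NK cells, beside 1602 CPM over all KO MLL-AF9 and 912 CPM over all WT MLL-AF9 cells. The part of free RNA or of mixed droplets in the members' differences was not tested.

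**Figure D5:**
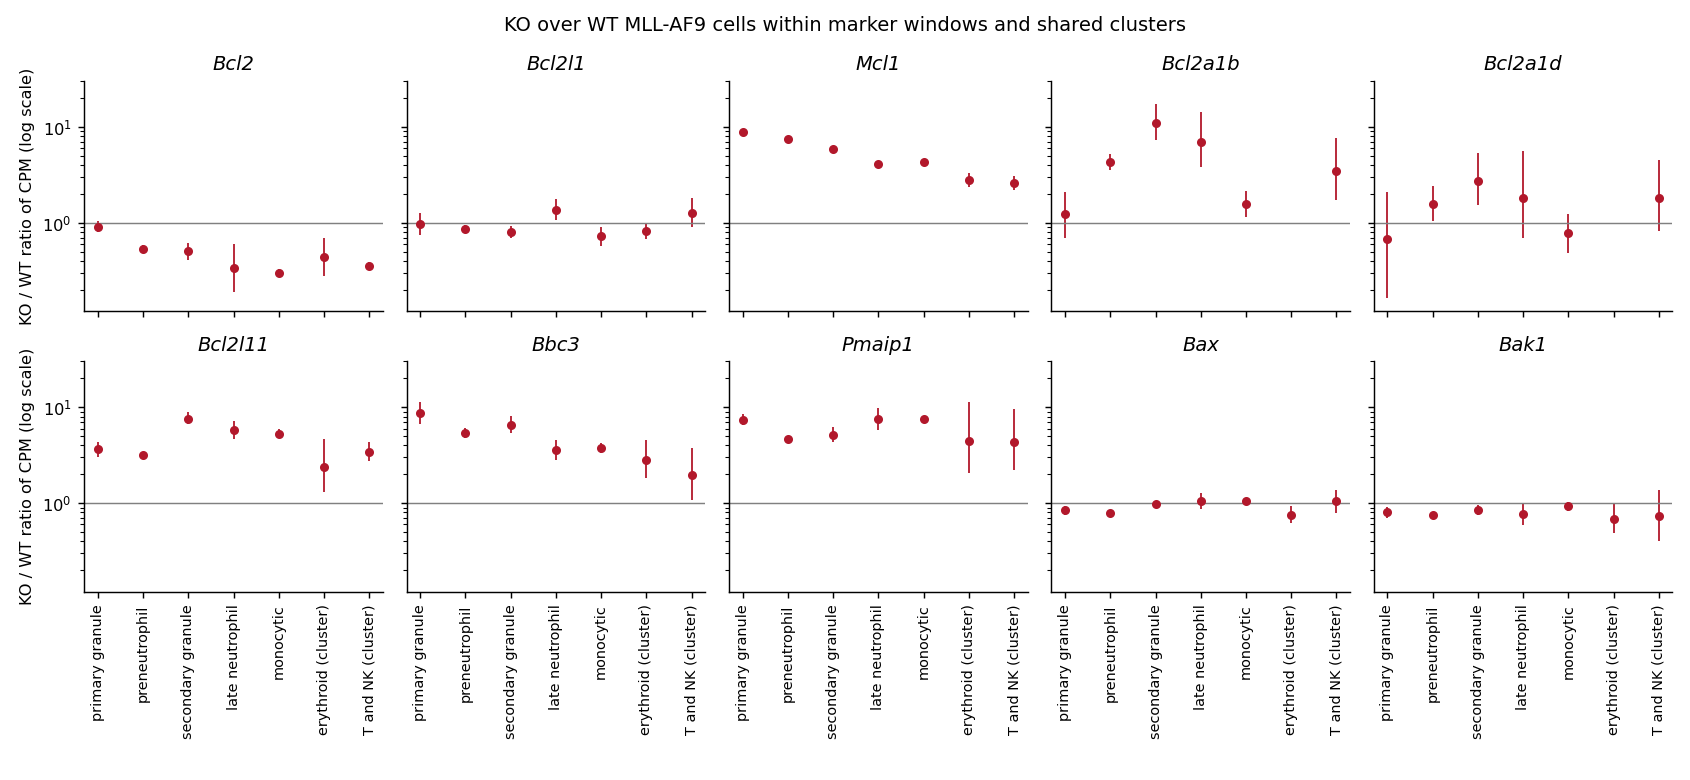
KO over WT ratio of CPM in MLL-AF9 cells (log scale, 95% intervals) for each member within 5 marker windows and 2 shared clusters. Points with 3 or fewer UMIs in a library are not drawn. Mcl1 is above 1 at every point (8.87 in primary granule and 2.60 in the T and NK cluster), as are Bcl2l11, Bbc3 and Pmaip1. Bcl2 lies below 1, from 0.912 in primary granule (interval 0.801 to 1.04) to 0.297 in monocytic cells.

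Between the c-Kit+ libraries the family was close to level. None of the 10 members was past 2-fold in either direction, and of all 9555 genes 0.0628% were higher and 0.0314% lower in KO by that mark. The ratios of KO to WT c-Kit+ ran from 0.905 (0.867 to 0.944) for Bcl2l11 to 1.11 (1.07 to 1.15) for Bcl2. Mcl1 had a ratio of 0.945 (0.926 to 0.963) and Bax one of 1.09 (1.05 to 1.12), both away from 1 by more than counting error. Pmaip1, at 1.03 (0.940 to 1.13), and Bbc3, at 0.928 (0.853 to 1.01), had intervals that included 1. Within windows Mcl1 ran from 0.796 to 1.26 and Bcl2 from 0.867 to 2.01 over 14 windows, and the highest Bcl2 ratio, in erythroid cells, rested on 5.57 CPM in KO c-Kit+ against 2.77 CPM in WT c-Kit+.

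Leukaemia and c-Kit+ cells of the same genotype were set side by side as well. In WT MLL-AF9 over WT c-Kit+ cells, 1 member was past 2-fold higher and 0 lower, beside 16.4% and 5.89% of all genes. That member was Pmaip1, at 3.18-fold (2.95 to 3.44). Bcl2l11 went the other way at 0.559 (0.532 to 0.588), which became 0.437 with size factors, and Bcl2 was 1.39-fold and Mcl1 1.05-fold the c-Kit+ level. The median gene had a log2 ratio of 0.28 here, and with size factors the Mcl1 ratio was 0.817. In KO MLL-AF9 over KO c-Kit+ cells, 5 members were higher and 1 lower, beside 12.7% and 12.6% of all genes. Pmaip1 was 14.4-fold (13.4 to 15.3) higher, Mcl1 7.17-fold, Bbc3 5.39-fold, Bcl2a1b 3.40-fold and Bcl2l11 2.80-fold, while the ratio of Bcl2 was 0.412. The KO MLL-AF9 library enters this comparison and the one with WT MLL-AF9, so they are not independent. Pmaip1 in the WT pair depended on the mix of windows: weighted to the same mix, its log2 ratio was 0.75. Within the stem and progenitor window the WT libraries differed in Bcl2l11, with 29.4 CPM in WT MLL-AF9 and 166 CPM in WT c-Kit+, and in Pmaip1, with 48.4 CPM in WT MLL-AF9 and 7.20 CPM in WT c-Kit+. In that window 39.2% of WT MLL-AF9 and 17.5% of WT c-Kit+ cells lay near a cut. No cluster of the MLL-AF9 cells was classed as stem and progenitor.

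Other lineages each had their own leading members. Within the c-Kit+ libraries, T and NK cells carried the highest Bcl2 level of any window, at 1045 CPM in KO c-Kit+ and 857 CPM in WT c-Kit+, together with the highest Bcl2l11, at 244 and 246 CPM in the same libraries. Their balance without Mcl1 was 2.89 in KO c-Kit+ and 2.54 in WT c-Kit+. Erythroid cells were the reverse, with Bcl2 at 5.57 CPM in KO c-Kit+ and 2.77 CPM in WT c-Kit+. Without Mcl1 the erythroid balance was 0.162 in KO c-Kit+ and 0.114 in WT c-Kit+. With Mcl1 included it was 0.585 and 0.493, beside 3.47 and 3.10 in T and NK cells. In erythroid cells of KO MLL-AF9, Bcl2l1 stood at 153 CPM, against 29.2 CPM in those of KO c-Kit+. The median gene had a log2 ratio of -0.80 between these windows. Erythroid markers summed to 125281 CPM in the erythroid cluster of KO MLL-AF9 and 28879 CPM in that of KO c-Kit+, so the 2 sets differ in make-up. The erythroid cluster of WT MLL-AF9 had 156 CPM of Bcl2l1. Bcl2a1b was highest in the T and NK and macrophage windows of the c-Kit+ libraries, at 68.7 and 62.9 CPM in KO c-Kit+ and 87.7 and 77.0 CPM in WT c-Kit+. Pmaip1 was highest in the class II window, named for antigen presentation genes, at 113 CPM in KO c-Kit+ and 94.3 CPM in WT c-Kit+. This depended on how cells were classed: the class II cluster, led by genes known from B cells (Ms4a1, Bank1 and Cr2), had 43.3 CPM in KO c-Kit+ and 44.0 CPM in WT c-Kit+, below the macrophage cluster at 57.5 and 80.6 CPM. Bax was highest in monocytic cells, at 206 CPM in KO c-Kit+ and 183 CPM in WT c-Kit+.

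Genes around the family were counted from 3 lists, among the listed genes that averaged at least 5 CPM. Of 15 other BCL2 family genes 7 reached that level, and 0 of the 7 were higher and 2 lower by 2-fold in KO than in WT MLL-AF9 cells, beside 5.5% and 12.6% of all genes, with a median log2 ratio of -0.53. The 2 were Bid and Bmf, and a further 2 below that level were lower by the mark. Bmf, at 2.86 CPM in KO and 7.56 CPM in WT MLL-AF9 cells, reached that level only through the WT library. Bid, the BH3-only substrate of caspase-8, had 26.6 CPM in KO and 58.4 CPM in WT MLL-AF9 cells (ratio 0.456), and Bcl2l13, known as a mitophagy receptor, had 53.8 CPM in KO and 27.6 CPM in WT (ratio 1.95). Of 20 apoptosome and caspase genes 19 reached the level, and 0 were higher and 2 lower, with a median of -0.37, next to the median gene at -0.38. The 2 were Casp2, at 14.4 CPM in KO and 32.8 CPM in WT MLL-AF9, and Xiap, the caspase inhibitor, at 64.3 CPM in KO and 141 CPM in WT. Of 15 upstream regulators, all at that level, 2 were higher and 2 lower, with a median of -0.28. Atf4, a stress response factor, had 429 CPM in KO and 81.7 CPM in WT MLL-AF9 cells, and Mdm2, a p53 target and inhibitor, had 211 CPM in KO and 68.2 CPM in WT. The lower pair were Stat5b, at 43.6 CPM in KO and 120 CPM in WT, and Stat5a, at 8.91 CPM in KO and 20.7 CPM in WT, which act downstream of cytokine receptors. Between the c-Kit+ libraries none of these genes was past 2-fold, and the list medians were 0.08, -0.02 and -0.06.

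In WT MLL-AF9 over WT c-Kit+ cells the same lists gave 2 higher and 0 lower of 7, 4 higher and 0 lower of 19, and 1 higher and 1 lower of 15, beside 16.4% higher and 5.89% lower of all genes. Caspase-8 led the second list, with 92.2 CPM in WT MLL-AF9 and 32.1 CPM in WT c-Kit+, a ratio of 2.87. Bnip3, which acts in mitophagy, led the first at 2.43, and Foxo1, which can activate Bcl2l11, was the lower regulator at 0.220. In KO MLL-AF9 over KO c-Kit+ cells they gave 0 higher and 0 lower of 6, 0 higher and 1 lower of 19, and 2 higher and 2 lower of 15, beside 12.7% and 12.6% of all genes. The single lower apoptosome gene was Cycs, which encodes cytochrome c, at 175 CPM in KO MLL-AF9 and 360 CPM in KO c-Kit+.

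The genes whose pattern was most like that of a member were found over 46 library-by-window sums of at least 100 cells, among 10577 genes, by the Pearson correlation of log2(CPM + 1). For Bcl2 they were Panx1 (0.93), Irf2bpl (0.90) and Tespa1 (0.89), and for Bax they were Rpl10 (0.93), Eif3f (0.93) and Commd4 (0.92). Mcl1 was closest to Hcar2 (0.91), Tiparp (0.87) and Mir22hg (0.87), and Bbc3 to Btg2 (0.83), Ccrl2 (0.77) and Mafk (0.76). Bcl2l11 was closest to Nup98 (0.83), Nr4a3 (0.80) and Nr4a1 (0.79), and Pmaip1 to Rilpl2 (0.84), Hspa1a (0.81) and Adgre5 (0.80). Bak1 was closest to Gipc1 (0.88), while the best match of Bcl2l1 reached 0.66 with Agfg1. Windows of 1 library share that library's preparation and depth, so these correlations describe the 46 sums and are not independent evidence.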

How the data were processed

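For each of 4 single-cell libraries the authors deposited a matrix of unnormalised UMI counts, made with Cell Ranger 7.1.0 and mm10 per the submitters' processing notes; the annotation is not given in the sources used here. Barcodes were kept from 500 genes and 1000 UMIs upwards where mitochondrial UMIs made up no more than 10%. Between 44 and 69 barcode sequences were shared by any pair of libraries. Doublets called by Scrublet in scanpy 1.11.5 (expected rate 8%) made up 3.33% to 3.65% of cells and were kept, with their removal as an alternative.

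Counts were summed per library or window and divided by the sum of all genes (CPM). Ratios are of CPM, and log2 ratios use CPM + 1. Intervals are exact Poisson for sums, conditional binomial for ratios and Clopper-Pearson for shares of cells, computed with scipy 1.17.1 and numpy 2.4.6 at 95%. The 2-fold rule was checked on simulated counts. With 1 library per group nothing was tested. Windows come from 14 marker lists: the mean log-normalised level of a list, scaled to the 99th percentile of WT c-Kit+ cells, with cells under 0.25 unassigned and a second list within 0.1 counted as near a cut. All 10 members are named, with up to 4 genes of each list of largest log2 ratio and the 3 most similar genes per member. Of the listed genes 2 (Ddit3 and Vpreb1) were not used, since their symbols did not match 1 row. The members and lists were chosen with earlier results of these data known. Size factors, TMM (edgeR 4.0.16), thinning, stricter filters, other pseudocounts and composition weights were alternatives.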

Additional observations from a re-analysis of the deposited data

Results flagged for a closer look

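For 4 members, the difference of KO from WT had opposite signs in MLL-AF9 and in c-Kit+ cells, with intervals that excluded 1 in both pairs. The difference between the 2 pairs was not tested, since each pair holds 1 library per genotype. For Mcl1 the log2 ratio of KO over WT was 2.69 in MLL-AF9 and -0.08 in c-Kit+ cells, a gap of 2.77. For Bcl2l11 it was 2.14 in MLL-AF9 and -0.14 in c-Kit+ cells, a gap of 2.28. For Bcl2 it was -1.57 in MLL-AF9 and 0.14 in c-Kit+ cells, a gap of -1.71. For Bax it was -0.38 in MLL-AF9 and 0.12 in c-Kit+ cells, a gap of -0.49 that shrank to -0.12 with size factors.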

How the results depend on the processing

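Over 68 alternatives to the counts of members past 2-fold, 61 stayed within 1.5 times the reported count. Among these, the setting with no minimum CPM could not change the count, and KO over WT c-Kit+ had 0 members under every setting. For single members, 211 of 620 alternatives moved the value by more than counting error and 0 reversed one past 2-fold. Of 48 alternatives to the balances, 22 did so and 4 reversed its sign. Across settings the KO over WT log2 ratio in MLL-AF9 cells ran from 1.37 to 3.04 for Mcl1, from -1.76 to -0.86 for Bcl2 and from 1.17 to 2.48 for Bcl2l11. It ran from 0.94 to 2.55 for Bbc3, from 1.97 to 2.56 for Pmaip1 and from 0.61 to 2.05 for Bcl2a1b. The lowest Bcl2a1b value was that of the erythroid cluster alone, on 6 KO and 1 WT UMIs. The log2 ratio crossed 0 for Bcl2l1 (-0.30 to 0.36), Bcl2a1d (-0.17 to 0.82) and Bax (-0.39 to 0.07). The balance of KO over WT MLL-AF9, 1.27 on the log2 scale, was 1.32 with stricter cell filters, 1.02 with equal weight per cell, 1.15 after thinning and 0.99 with matched composition. For WT MLL-AF9 over WT c-Kit+, 1 member past 2-fold became 2 with size factors, TMM factors or equal weight per cell, and 0 with matched composition or a mean of 25 CPM. For late over primary granule, clusters gave 3 of all 10 members in place of 6 in KO MLL-AF9 and 2 in place of 4 in WT MLL-AF9. The balance of KO over WT c-Kit+, -0.05 as reported, was 0.0252 with equal weight per cell and 0.0679 with matched composition. Without Mcl1, the balance of WT MLL-AF9 over WT c-Kit+, 0.20 as reported, was -0.0229 after thinning and -0.0856 with matched composition. The cause of these shifts was not tested. Keeping only the erythroid or only the T and NK cluster was chosen after seeing the data. No paired analysis was possible because each group holds 1 library, and no replicate could be left out. Depth limits Bcl2a1d most, at 2.46 to 2.75 CPM.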
